A study of Homo sapiens with 42 samples.

Results

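H3K36me3 was compared between 2 lung cancer lines over gene bodies, the transcribed stretch from the start to the end of a gene. The comparison takes 4 of the 42 samples of the series, chosen by their titles: the H3K36me3 ChIP-seq libraries of NCI-H661, replicates 1 and 2, and of the NCI-H1299 control, replicates 1 and 2. Each library is a list of islands, broad stretches in which ChIP reads exceeded the matched input, and after filtering the lists held 99096 and 62834 islands in NCI-H661 and 90022 and 98189 in the NCI-H1299 control. For each of 19962 protein-coding genes on 23 chromosomes the measure was the share of its gene body that islands covered, in percent.

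NCI-H661 is a large cell lung carcinoma line, profiled here as parental, untreated cells that express the embryonic factors DPPA2 and DPPA4. NCI-H1299 is a non-small cell lung cancer line that does not express them, and the cells used, called DOVE, carry FLAG-DPPA2 and V5-DPPA4 transgenes that doxycycline (DOX) switches on. The control had received water for 7 days. A further 2 NCI-H1299 libraries, from cells given DOX at 2 µg/mL for 7 days, are quoted as additional libraries of the same line and entered no test. The ChIP in both lines used the same H3K36me3 antibody, with fewer cells per ChIP in NCI-H661, and both replicates of a line were called against 1 input. By the study's methods, mouse cells were spiked into ChIPs of treatment experiments, vehicle controls included, and parental NCI-H661 was no such experiment. The study's methods call the replicates independent, but nothing says that they came from separate cultures, so p-values measure only the spread between these libraries, which may be technical.

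H3K36me3 is trimethylation of lysine 36 of histone H3. The enzyme SETD2 travels with elongating RNA polymerase II and places the mark behind it, so the mark fills the bodies of transcribed genes, is low at promoters and rises towards the gene end. Proteins with a PWWP domain read it, among them the DNA methyltransferase DNMT3B and PSIP1, and so does the mismatch repair protein MSH6. Gene bodies of silent genes, such as olfactory receptors outside the nose, are known to lack it.

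The islands followed genes in all 4 libraries. Gene bodies held 95.1% and 94.1% of the island length in NCI-H661 and 95.3% and 95.4% in the control. Along 3711 tested genes of at least 10 kb that overlapped no other protein-coding gene, the mean covered share in the first 10% of the body was 23.1% and 7.07% in NCI-H661 and 11.85% and 14.01% in the control. Past the midpoint of the body it reached 60.6% and 33.3% in NCI-H661 and 34.3% and 35.6% in the control. In the fifth kb past the gene end the share was 14.7% and 8.80% against 7.69% and 7.71%. Each library thus had the same shape, low at the start and highest beyond the midpoint, and NCI-H661 replicate 1 was the highest throughout.

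**Figure D1:**
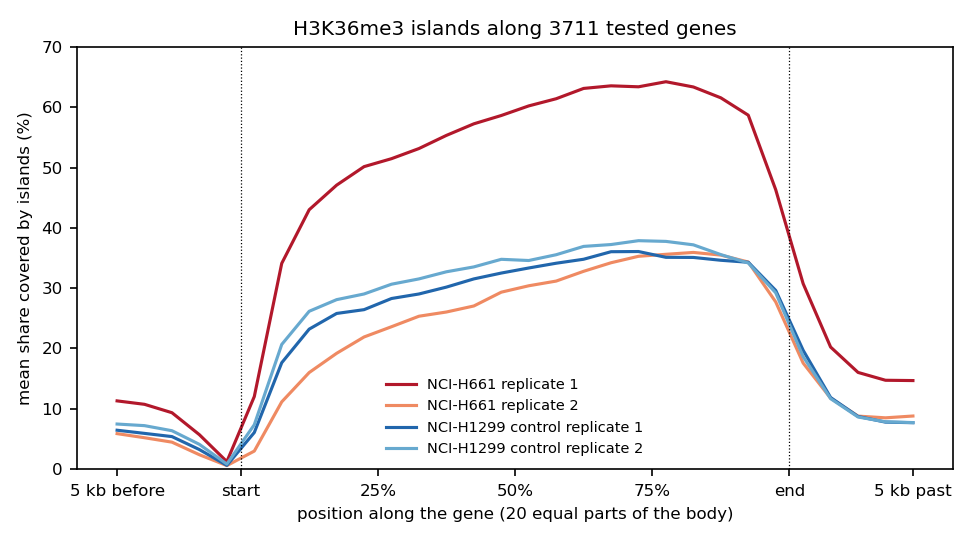
Mean share covered by H3K36me3 islands (y axis, %) along 3711 tested genes (x axis, 5 kb before the start, 20 equal parts of the body, and 5 kb past the end), with 1 line for each of the 4 libraries. All lines rise from the start and drop at the gene end, and NCI-H661 replicate 1 lies above the other 3.

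The libraries differed in ways that touch every comparison below. Islands covered 186.5 Mb in NCI-H661 replicate 1, 80.0 Mb in replicate 2, and 98.7 and 102.2 Mb in the control libraries. They held 5.97 M and 3.42 M ChIP reads in NCI-H661 and 2.68 M and 2.77 M in the control, which are reads inside islands and not sequencing depth. Of the control islands 42.8% and 44.3% had 0 input reads, against 1.40% and 2.87% in NCI-H661. Across 8098 genes, which are not independent replicates, the covered shares of the control libraries had a Spearman correlation of 0.88, those of the NCI-H661 libraries 0.63, and NCI-H661 replicate 2 had -0.06 and -0.03 with the control libraries.

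GC content of the gene body moved with the shares. In genes under 40% GC the median covered share was 44.1% and 5.43% in NCI-H661 and 33.8% and 35.5% in the control. In genes over 55% GC it was 49.2% and 46.6% in NCI-H661 and 4.85% and 6.83% in the control. NCI-H661 replicate 2 therefore ran opposite to the control libraries, with replicate 1 nearly flat, and how far the GC trend is technical was not tested.

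**Figure D2:**
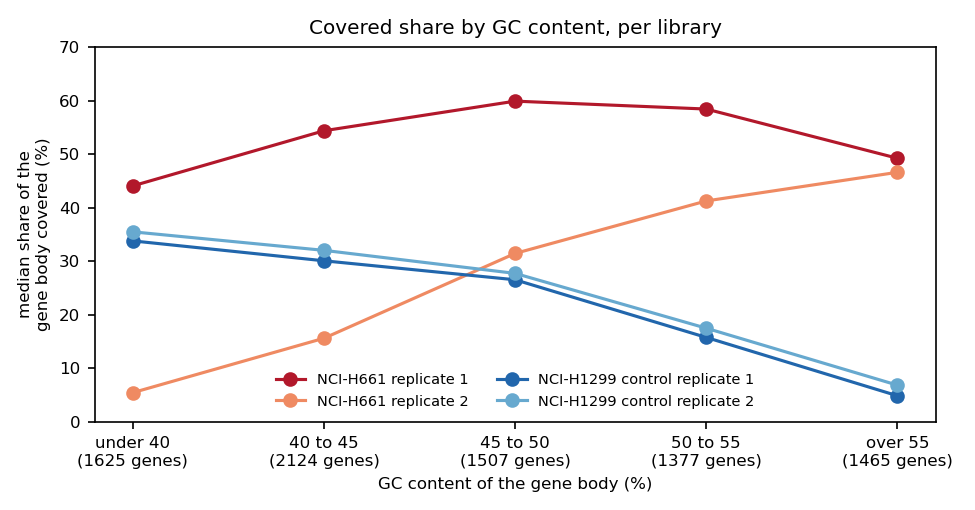
Median share of the gene body covered by H3K36me3 islands (y axis, %) in 5 classes of gene body GC content (x axis, with the number of genes), with 1 line for each library. NCI-H661 replicate 2 rises from 5.43% to 46.6% while the control libraries fall from 33.8% and 35.5% to 4.85% and 6.83%.

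With the islands as called, no gene passed. Of 9614 genes with a mean share of at least 5%, limma called 0 (0%) higher in NCI-H661 and 0 (0%) higher in the control at a Benjamini-Hochberg adjusted p of at most 0.05 and a difference of at least 25 percentage points. The smallest adjusted p was 0.100, and 2637 genes had an unadjusted p under 0.05. With 2 libraries against 2, an exact permutation test of a single gene cannot give a two-sided p below 0.333. The groups nevertheless lay apart in many genes: in 1399 the lower NCI-H661 library exceeded the higher control library by at least 25 points, and in 232 the reverse held. With NCI-H661 replicate 1 left out the same fit called 1205 and 861 genes, and with replicate 2 left out 2639 and 145. With either control replicate left out it called 0.

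The shares were therefore scaled, a choice made after their values were seen. Equal total island length in every library gave 458 genes higher in NCI-H661 and 472 higher in the control, and quantile normalization gave 754 and 836. With the GC trend of each library removed as well, the counts were 514 and 455, and 872 and 857. A gene is called below only where all 4 of these limma fits called it in the same direction. Of 8098 genes, 217 (2.68%) were then higher in NCI-H661 and 198 (2.45%) were higher in the control. Each library weighed on these counts: without control replicate 1 or replicate 2 both were 0. Without NCI-H661 replicate 1 they were 342 and 319, with 142 and 125 of the genes above among them. Without NCI-H661 replicate 2 they were 160 and 78, with 77 and 58 of those genes among them.

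**Figure D3:**
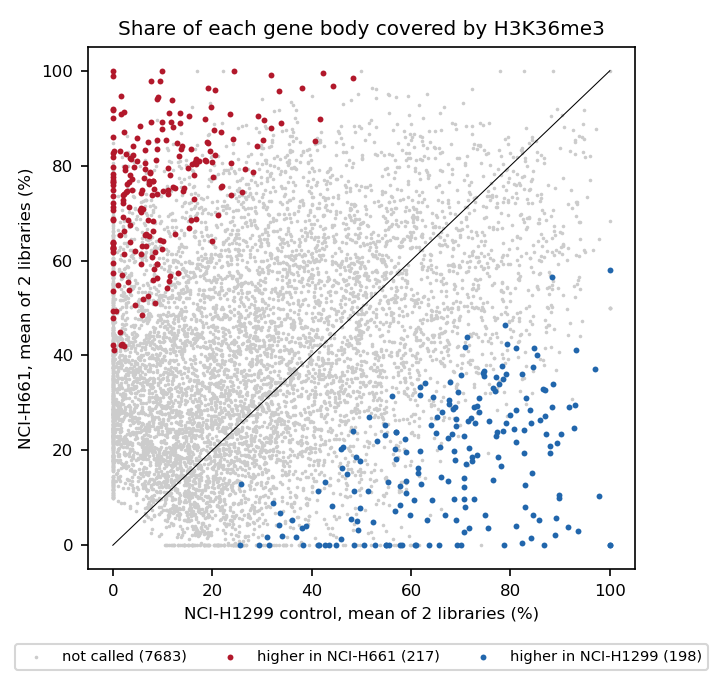
Mean share of each gene body covered in the 2 NCI-H661 libraries (y axis, %) against the 2 control libraries (x axis, %) for 8098 genes, with 1 point a gene and the diagonal marking equal shares. The 217 genes called higher in NCI-H661 (red) lie at the upper left and the 198 called higher in NCI-H1299 (blue) at the lower right.

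Genes higher in NCI-H661 had median shares of 82.6% and 71.4% there and 6.89% and 7.65% in the control. Genes higher in the control had medians of 67.3% and 71.5% there and 32.2% and 1.78% in NCI-H661. The median gap between the closest libraries of the lines was 57.3 points in the first set and 29.1 points in the second. The sets also differed in make-up. Median gene body GC was 51.1% in the NCI-H661 set and 41.2% in the control set, beside 45.9% over all tested genes, and median length was 22.7 kb and 26.1 kb beside 27.4 kb. Input reads per kb of island, relative to the whole library, were 1.35 and 1.48 in NCI-H661 and 0.864 and 0.895 in the control over the first set, and 0.815 and 0.790 against 1.33 and 1.29 over the second. Input thus moved in the direction of the call in each set. It was counted only inside kept islands, which had to exceed input and covered less of these genes in the lower line. The lines were so compared over unlike stretches, and the part of input in the calls was not tested.

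The 15 genes with the widest gap above the control in NCI-H661 included kinases and regulators of signalling and transcription. RBM38, an RNA-binding protein and known p53 target on chromosome 20 (57391396 to 57409333, hg38), was covered to 95.3% and 93.8% in NCI-H661 and 3.34% and 0% in the control. The difference was 92.9 points with a standard error of 12.9 in the fit of islands as called, and the largest adjusted p of the 4 scaled limma fits was 0.0359. MAP3K10, a kinase that activates JNK signalling, had 96.8% and 98.9% against 9.11% and 6.21%. AKT2, a kinase of the insulin pathway, had 98.3% and 90.5% against 9.96% and 8.33%, and neighbours MAP3K10 on chromosome 19. All of these bodies were nearly filled in NCI-H661 and nearly bare in NCI-H1299.

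The other genes of the 15 had various roles. SIRT2, a deacetylase that uses NAD, was covered to 96.9% and 83.3% in NCI-H661 and 0% in both control libraries. LPCAT1, an acyltransferase that makes the phosphatidylcholine of lung surfactant, had 93.7% and 94.5% against 10.7% and 7.26%. LRP1, a large endocytic receptor, had 87.8% and 78.3% against 0.589% and 0%. SLC12A7, a potassium chloride cotransporter, had 76.4% and 76.9% against 0% and 0%. LAMA5, a laminin chain of basement membranes, had 90.4% and 91.9% against 9.27% and 13.5%. The other 7 were HELZ2, C19orf12, ANKRD27, TCFL5, POP4, PANK4 and SDF4, with 79.0% to 94.3% in NCI-H661 and at most 12.2% in the control.

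In the control, the widest gaps included genes of general cell function. TBP, the TATA-binding protein of basal transcription, was covered to 94.6% and 92.5% in the control and 3.77% and 2.15% in NCI-H661, a difference of -90.6 points with a standard error of 12.9. PSMB1, a proteasome subunit encoded beside TBP near the end of chromosome 6, had 97.8% in both control libraries against 18.1% and 2.75%. Their promoters held H3K27ac islands, a mark of active promoters, in all 4 libraries of that mark. Both bodies were thus nearly filled in NCI-H1299 and little covered in NCI-H661, with promoter H3K27ac in both lines. H3K4me1 and H2AK119ub islands lay at both promoters in both control libraries and in neither NCI-H661 library. TBP begins at 170554302 and PSMB1 at 170553307, in opposite directions, so the promoter stretches can share islands and are not separate observations. Transcription itself was not measured in these files.

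Other genes of this set belong to the cell surface and the cell cycle. CAV1, the main protein of caveolae, had 84.8% and 83.4% in the control and 2.21% and 0.829% in NCI-H661. NT5E, the surface enzyme CD73 that makes adenosine, had 75.7% and 81.6% against 0% and 0%. HMGA2, an architectural chromatin protein of fetal tissue and many tumors, had 71.6% and 79.2% against 7.47% and 0%. CDK6, a kinase of G1 phase, had 65.1% and 73.0% against 8.46% and 1.99%. MYBL1, a transcription factor of meiosis, had 82.6% and 81.9% against 0.960% and 0%, and IHO1, a protein of meiotic recombination, had 64.0% and 75.9% against 0% and 0%. The other 7 were RAD51AP1, SEPTIN2, MYLIP, LRRCC1, YBX3, ZNF16 and ZNF732. Over these 15 genes no NCI-H661 share exceeded 20.04% and no control share lay under 55.5%. ZNF16 turned to the other direction, by 2.19 points, when only islands with a log2 fold above 2 over input were kept.

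**Figure D4:**
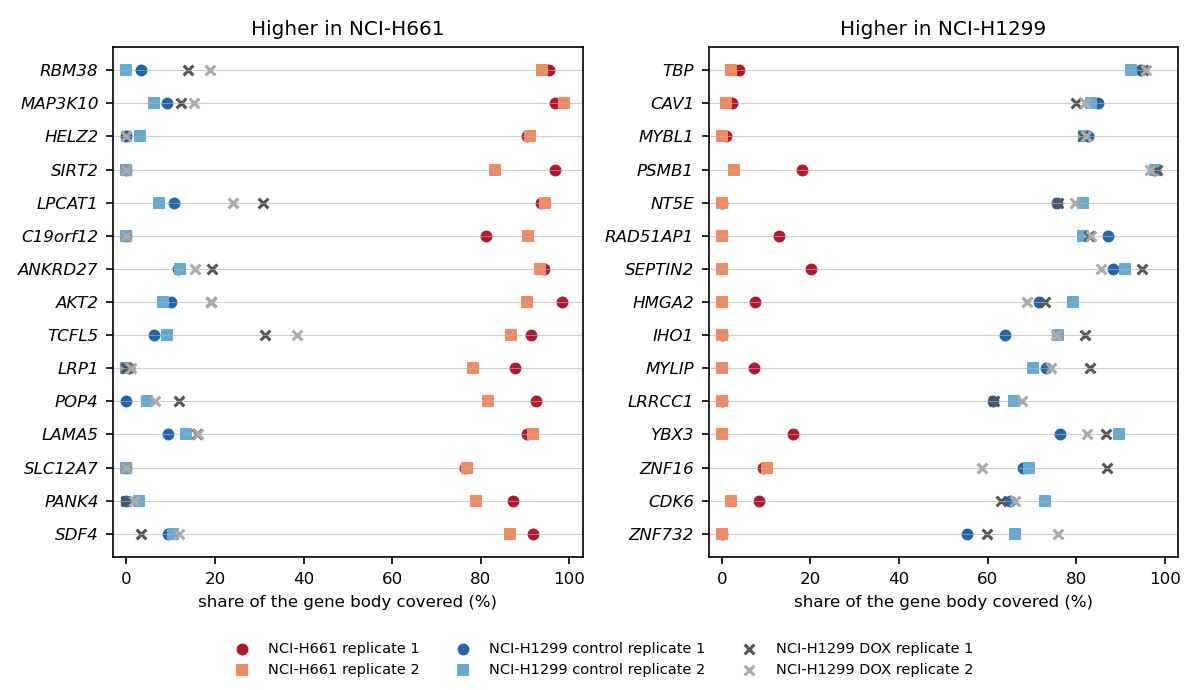
Share of the gene body covered (x axis, %) for the 15 genes with the widest gap in each direction, with 1 marker for each of the 4 libraries and crosses for the 2 DOX libraries of NCI-H1299. The NCI-H661 and control markers do not overlap in any of these genes, which the rule that chose them requires, and the crosses lie nearer to the control markers.

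The DOX libraries give a second look at NCI-H1299 that the choice of genes did not use. The NCI-H661 values they are set against did choose the genes, so the counts below favour a difference from all tested genes. For CAV1 the DOX libraries held 80.1% and 82.0%, for TBP 95.2% and 95.7%, for SIRT2 0% and 0%, and for RBM38 13.9% and 18.95%. Both DOX libraries lay below both NCI-H661 libraries in 215 of the 217 genes higher in NCI-H661, beside 34.4% of all 8098 tested genes. They lay above both in 192 of the 198 genes higher in the control, beside 22.6% of all tested genes. HLA-E, which presents peptides to natural killer cells, was an exception: it had 61.9% and 64.0% in NCI-H661, 0% in both control libraries, and 42.6% and 68.3% with DOX.

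Called genes lay together in some windows of 5 Mb, chosen here for holding at least 5 of them. Over all tested genes 2.68% were higher in NCI-H661 and 2.45% in the control. Genes that overlap one another, such as RAB4B and RAB4B-EGLN2, were counted separately in the windows and can share islands. On chromosome 19, 24 of 112 tested genes between 35000001 and 40000000 and 16 of 76 in the next 5 Mb were higher in NCI-H661, and 0 were higher in the control. Relative input density there was 1.82 and 1.99 in NCI-H661 against 1.15 and 1.09 in the control in the first window, and 1.33 and 1.54 against 0.817 and 0.703 in the next. In the first 5 Mb of chromosome 4, 8 of 30 genes were higher in the control, among them HTT, the huntingtin gene, with input at 0.592 and 0.569 in NCI-H661 against 1.737 and 1.795. In the 21 such windows, input inside islands was compared between the lines, and windows with fewer calls were not compared in this way. In 16 both libraries of the line with more calls lay above both of the other line, in 4 below, and in 1 they overlapped. An example of the 4 lies between 60000001 and 65000000 on chromosome 20, where 5 of 50 genes, among them HELZ2, TCFL5 and LAMA5, were higher in NCI-H661 with input at 1.35 and 1.41 against 1.43 and 1.56. LPCAT1, SLC12A7 and TERT, all higher in NCI-H661, lie within the first 5 Mb of chromosome 5. JUP and ERBB2, named below, lie in windows of chromosome 17 with 11 of 81 and 5 of 33 genes higher in NCI-H661. In both windows 0 were higher in the control. On all of chromosome 20, which holds RBM38, SALL4, TFAP2C and DNMT3B, 8.13% of tested genes were higher in NCI-H661 and 0.353% in the control. The part of DNA copy number in these clusters was not tested.

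Of 40 listed genes of the early embryo and germline, 22 had no island in any of the 4 libraries and 11 were tested. Of these, 6 were higher in NCI-H661 and 1 was higher in the control, beside 2.68% and 2.45% of all tested genes. Genes such as SALL4, at 0% in both control libraries, entered the test only through NCI-H661, so the counts over tested members favour a difference. Over all 40, 6 were covered to at least 25% in both NCI-H661 libraries and 3 in both control libraries, beside 3699 and 3449 of all 19962 genes, and the median was 0% in each library. SALL4, a zinc finger transcription factor of pluripotent cells, had 90.5% and 73.2% in NCI-H661 and 0% in all 4 NCI-H1299 libraries. TFAP2C, a regulator of primordial germ cells, had 80.0% and 72.0% against 0% and 0%. TERT, the catalytic subunit of telomerase, had 72.3% and 93.2% against 0% and 0%. L1TD1, an RNA-binding protein of pluripotent cells, had 70.9% and 36.04% against 0% and 0%. TDRD12, a piRNA pathway protein, went the other way, with 0.546% and 2.23% in NCI-H661 and 42.1% and 49.8% in the control.

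DPPA2 itself was covered to 68.6% and 29.9% in NCI-H661 and 0% in both control libraries, and was called. DPPA4 had 64.0% and 21.0% against 0% and 0% and was not called, with a largest adjusted p of 0.393 over the 4 limma fits, and at equal island length its share in NCI-H661 replicate 1 was 0%. In the DOX libraries, in which the transgenes were on, DPPA2 had 0.880% and 1.76% and DPPA4 0% and 6.14% over the native genes. Neither native gene was thus marked to more than 6.14% in any NCI-H1299 library, with or without DOX.

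H3K27ac islands lay at the promoters of DPPA2, DPPA4, SALL4, TFAP2C, TERT and L1TD1 in both NCI-H661 libraries and neither control library. Among the other genes named for coverage, RBM38, SLC12A7, JUP, ERBB2, CBR1 and HLA-E had the same pattern. The reverse, islands in both control libraries and neither NCI-H661 library, held for ZNF43, SOX9 and LRRCC1. Over all tested genes the patterns held for 11.2% and 0.408%. The RefSeq promoters (GRCh38.p14, 250 bases before to 50 after the start) of 4 of these genes are shown, with each CG in capitals, because H3K27ac at them was found in only 1 of the lines. The start is that of the canonical GENCODE transcript, around which H3K27ac was scored, and for ZNF43 it lies inside the gene body. They lie at chr3:109316468-109316767 (minus strand), chr3:109337497-109337796 (minus), chr1:62194599-62194898 (plus) and chr19:21836133-21836432 (minus).
DPPA2: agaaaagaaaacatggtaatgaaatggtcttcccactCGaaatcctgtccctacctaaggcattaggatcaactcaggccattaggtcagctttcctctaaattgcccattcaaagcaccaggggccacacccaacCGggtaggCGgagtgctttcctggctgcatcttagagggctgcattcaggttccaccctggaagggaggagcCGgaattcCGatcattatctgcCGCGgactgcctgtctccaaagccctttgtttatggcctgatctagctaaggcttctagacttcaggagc
DPPA4: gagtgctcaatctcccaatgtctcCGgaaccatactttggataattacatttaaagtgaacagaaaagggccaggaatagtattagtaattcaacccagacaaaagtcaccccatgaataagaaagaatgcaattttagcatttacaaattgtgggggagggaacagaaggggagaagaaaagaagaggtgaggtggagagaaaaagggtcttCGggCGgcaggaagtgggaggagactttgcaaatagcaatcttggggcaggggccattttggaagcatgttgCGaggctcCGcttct
L1TD1: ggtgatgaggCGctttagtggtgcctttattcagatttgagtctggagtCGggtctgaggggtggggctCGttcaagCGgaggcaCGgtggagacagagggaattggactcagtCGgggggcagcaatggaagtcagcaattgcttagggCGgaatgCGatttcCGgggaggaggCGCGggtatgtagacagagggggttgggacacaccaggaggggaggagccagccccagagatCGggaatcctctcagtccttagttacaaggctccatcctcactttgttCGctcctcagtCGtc
ZNF43: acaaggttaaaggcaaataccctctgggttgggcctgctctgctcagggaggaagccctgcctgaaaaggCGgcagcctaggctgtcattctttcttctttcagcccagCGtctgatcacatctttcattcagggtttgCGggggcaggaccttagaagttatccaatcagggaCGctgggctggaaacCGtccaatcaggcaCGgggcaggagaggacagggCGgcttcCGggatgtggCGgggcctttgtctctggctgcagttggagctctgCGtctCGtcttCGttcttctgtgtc
The promoters of DPPA2, DPPA4, L1TD1 and ZNF43 hold 7, 5, 14 and 12 CG. CG reads the same on both strands, and 96.0% of 35097 such promoters hold at least 1, with a median of 14.

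**Figure D5:**
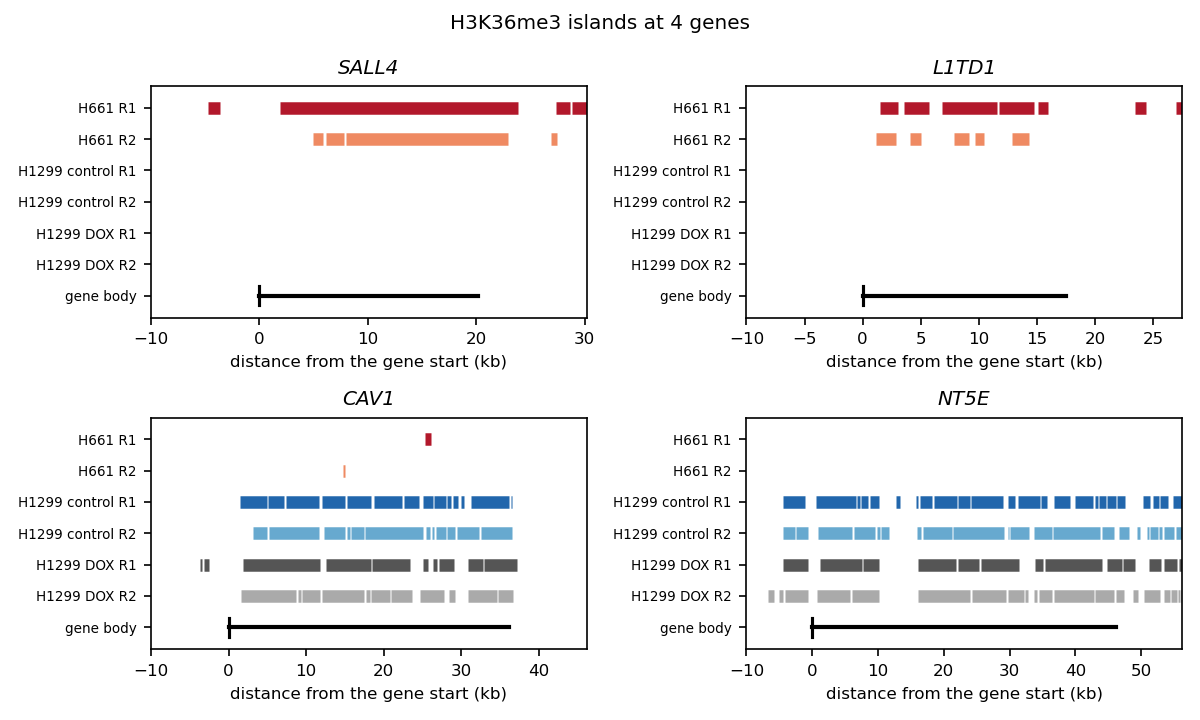
H3K36me3 islands at SALL4, L1TD1, CAV1 and NT5E as bars (x axis, distance from the gene start in kb), with 1 row for each library of NCI-H661, NCI-H1299 control and NCI-H1299 DOX above a black bar for the gene body. SALL4 and L1TD1 carry islands in the NCI-H661 rows only, NT5E in the NCI-H1299 rows only, and CAV1 in all rows with 1 short island in each NCI-H661 library.

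At SALL4 the islands began 1.92 and 4.92 kb past the gene start in NCI-H661 and held 1618 and 1208 ChIP reads with 238 and 180 input reads. At NT5E they began 0.617 and 0.917 kb past the start in the control and held 1087 and 1201 ChIP reads with 63 and 71 input reads. The start of each body was thus bare in the marked line, and the other line had no island over these genes.

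Epithelial, lung and matrix genes gave a few calls each, beside 2.68% and 2.45% of all tested genes. As above, a gene bare in 1 line could enter the test only through the other. JUP, the junction protein plakoglobin, had 69.6% and 68.0% in NCI-H661 against 0% and 0%, and CGN, a tight junction protein, had 79.1% and 46.8% against 2.48% and 9.23%. They were the 2 called of 6 tested and 30 listed epithelial genes, and 0 were higher in the control. Of all 30, 4 were covered to at least 25% in both NCI-H661 libraries and 0 in both control libraries. Over all 19962 genes these counts were 3699 and 3449. Of 6 tested and 30 listed lung lineage genes, LPCAT1 was higher in NCI-H661, and CAV1 and SOX9 were higher in the control. SOX9, a transcription factor of the distal lung bud, had 57.4% and 53.7% in the control and 0% and 0% in NCI-H661. Among 15 tested of 44 matrix and integrin genes, LAMA5 and LAMB2 were higher in NCI-H661 and the integrin ITGA3 was higher in the control, with 81.7% and 83.7% against 32.7% and 15.9%. LAMB2, a laminin chain, had 90.0% and 86.5% against 8.33% and 15.8%, and ITGA3 turned to 6.84 points when only islands with a log2 fold above 2 were kept. Of 30 mesenchymal genes 11 were tested and 0 were called. Of the 30, 7 were covered to at least 25% in both NCI-H661 libraries and 2 in both control libraries, beside 3699 and 3449 of all 19962.

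The signalling, metabolic and immune lists had at most 1 call each, beside 2.68% and 2.45% of all tested genes. ERBB2, a receptor tyrosine kinase, had 73.4% and 57.4% in NCI-H661 and 2.12% and 0.706% in the control. It was the only call among 13 tested of 51 receptor tyrosine kinases. Its window on chromosome 17 had 5 of 33 tested genes higher in NCI-H661. CBR1, a carbonyl reductase, had 64.0% and 60.9% against 0% and 0%, the only call among 19 tested of 27 NRF2 target genes. HLA-E, described above, was the only call among 14 tested of 31 antigen presentation genes. Of 19 tested lung cancer tumor suppressors, 0 passed in either direction under all 4 limma fits. Among 5 tested cancer-testis genes, ATAD2, a bromodomain protein, was higher in the control with 64.8% and 74.2% against 54.8% and 9.84%. Neuroendocrine genes, with 4 tested, and squamous genes, with 1 tested, had 0 calls.

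Among genes that write and read the mark the calls were again few, 0 to 1 a list in each direction beside 2.68% and 2.45% of all tested genes. SETD2 had 49.2% and 7.85% in NCI-H661 and 20.5% and 24.6% in the control, so the lines overlapped, and its difference changed sign between scalings. Of 12 tested members of the H3K36 methylation machinery, SUPT6H, the elongation factor that brings SETD2 to the polymerase, was higher in NCI-H661 with 92.6% and 78.0% against 34.3% and 46.9%. Of 18 tested readers, DNMT3B was higher in NCI-H661 with 71.7% and 59.3% against 6.17% and 6.81%, and PWWP2A was higher in the control with 50.8% and 63.3% against 27.8% and 8.67%. Of 19 tested mismatch repair and replication genes, RFC1, a subunit of the clamp loader, was higher in the control with 64.2% and 70.9% against 42.3% and 2.91%. The readers had list medians of 53.8% and 29.6% in NCI-H661 and 24.8% and 21.1% in the control.

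Genes of general function gave 0 calls higher in NCI-H661, beside 2.68% of all tested genes, a share at which short lists would hold few calls. The NCI-H661 libraries differed widely over them. All 52 cytosolic ribosomal protein genes were tested, 0 were higher in NCI-H661 and 5 were higher in the control, beside 2.45% of all tested genes, namely RPS27, RPS20, RPL34, RPS23 and RPL7. RPS27 had 75.7% and 90.0% in the control and 25.5% and 0% in NCI-H661. The median difference of the list was -16.6 points beside 10.6 points over all tested genes, with medians of 74.3% and 27.9% in NCI-H661 and 70.6% and 78.8% in the control. NCI-H661 replicate 2 was the low library, the median of replicate 1 lay between those of the control libraries, and these short genes have processed copies elsewhere that could share reads. RPS20 turned to 3.44 points when only islands with a log2 fold above 2 were kept. Of 127 tested genes listed as KRAB zinc fingers, a family with many repressors of transposable elements, 0 were higher in NCI-H661. The 5 higher in the control, beside 2.45% of all tested genes, were ZNF16, ZNF43, ZNF141, ZNF300 and ZNF20. ZNF43 had 42.0% and 45.1% against 0% and 0%, and the list medians were 42.0% and 4.73% in NCI-H661 and 23.3% and 29.2% in the control. Of 28 tested proteasome and splicing genes, PSMB1 and PSMA4 were higher in the control, of 28 tested housekeeping genes only TBP was, and of 8 tested replication-dependent histone genes only H4C9 was, a gene of 0.397 kb. List medians of the proteasome and splicing genes were 78.1% and 40.8% in NCI-H661 and 63.6% and 59.6% in the control, and those of the housekeeping genes 55.6% and 27.3% against 42.1% and 41.8%. In these lists and the KRAB genes NCI-H661 replicate 1 thus lay above both control libraries and replicate 2 below both.

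Genes of other cell types served as a check of the readout. Of 56 olfactory receptor genes 54, and of 25 haematopoietic marker genes 23, had no island in any of the 4 libraries, and the highest share was 4.32% and 5.68%. Of 22 hepatic genes 18 had none and 0 entered the test. Over all 19962 genes 7404 had none.

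The promoter marks of the called sets, measured in libraries that the coverage fits did not use, differed from those of all tested genes. H3K27ac islands lay at 98.6% of promoters in both NCI-H661 libraries and at 63.1% and 65.9% in the control libraries for the genes higher in NCI-H661. For the genes higher in the control they lay at 84.8% and 93.4% in NCI-H661 and at 87.9% and 89.4% in the control. Over all tested genes the values were 93.5% and 97.0% against 73.9% and 79.6%. Promoters with H3K27ac in both NCI-H661 libraries and neither control library were 24.4% of the first set, 3.03% of the second and 11.2% of all tested genes. The reverse, in both control libraries and neither NCI-H661 library, was 0%, 3.03% and 0.408%. All 4 libraries of the mark were positive for 54.4% of the first set and 74.7% of the second, beside 67.2% of all tested genes. Most called genes, like most tested genes, thus had an H3K27ac promoter in both lines.

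H3K4me1, a mark of enhancers and promoter flanks, lay at more promoters in the line with the higher shares in both sets. H3K27ac did so only in the first set, and in the second its NCI-H661 and control values overlapped. H3K4me1 lay at 86.6% and 81.1% of promoters in NCI-H661 and 58.5% and 68.7% in the control for the genes higher in NCI-H661. For the genes higher in the control it lay at 32.3% and 15.7% in NCI-H661 and 82.8% and 88.4% in the control, beside 64.0% and 49.8% against 68.0% and 79.2% over all tested genes. H2AK119ub, the Polycomb ubiquitin mark, lay at 41.0% and 56.2% of promoters in NCI-H661 for the first set, 13.6% and 20.2% for the second and 22.2% and 32.2% for all tested genes. In the control libraries it lay at 12.9% and 33.2%, 23.2% and 38.4%, and 17.1% and 34.3%. DPPA2 and DPPA4 peaks from NCI-H661, required in all 4 lists, lay at 66.4% of promoters of the first set, 23.7% of the second and 46.6% of all tested genes. GC content differs between these sets in the same order, and its part in the shares of promoters was not tested.

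Where both lines carried the mark, read counts could be compared. Of 333 genes covered to at least 50% in all 4 libraries, edgeR's quasi-likelihood test called 58 (17.4%) with more island reads in NCI-H661 and 49 (14.7%) with more in the control, at an adjusted p of at most 0.05 and a log2 change of at least 0.5. The median log2 change over all 333 genes was -0.04. Without control replicate 1 the counts were 12 and 10, and without control replicate 2 they were 8 and 9. With covered length as an offset they were 17 and 24.

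The genes with more reads in NCI-H661 were led by PSMC4, an ATPase subunit of the proteasome. It had 646.1 and 818.5 normalised reads in NCI-H661 and 282.5 and 257.1 in the control, a log2 change of 1.44 (SE 0.21, edgeR adjusted p = 9.11e-09). Its input reads differed by 2.07 on the log2 scale in the same direction, and with input as an offset the log2 change was -0.74. With that offset YTHDF1 and BYSL had log2 changes of -0.046 and -0.016. WDR62, a centrosome protein, had a log2 change of 1.33, PRPF6, a splicing factor, 1.27, YTHDF1, a reader of methylated RNA, 1.24, BAZ2A, a chromatin remodeller subunit, 1.20, and BYSL, a ribosome assembly factor, 1.12. Input of these 6 genes was higher in NCI-H661 by 0.87 to 2.07 on the log2 scale.

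Among genes of at least 10 kb with little overlap, the largest change towards the control was that of HJURP, the chaperone of the centromeric histone CENP-A. It had 355.5 and 445.5 normalised reads in NCI-H661 and 1003 and 916.7 in the control, a log2 change of -1.26 (SE 0.20, edgeR adjusted p = 7.96e-08). KPNB1, a nuclear import receptor, had -1.23, RBM39, a splicing factor, -0.98, BAZ1B, a chromatin remodeller subunit, -0.93, and TRIM27, a ubiquitin ligase, -0.89. In each of these the groups of libraries did not overlap. The median input difference was 0.91 over the 58 genes, -0.998 over the 49 and -0.08 over all 333 on the log2 scale. Input and ChIP reads were both summed over the same islands, so a longer covered stretch raises both. Their shared direction thus cannot be read apart from covered length, and the part of copy number was not tested.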

How the data were processed

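Single-end ChIP-seq reads were aligned by the authors to hg38 (GRCh38.p13), with BWA 0.7.13, SAMtools 1.9, Trim Galore 0.6.6, MACS2, deepTools 3.5.0 and Picard 2.6.0 listed in the submitters' processing notes. The authors called islands with EPIC2 for each replicate against the matched input. A deposited island has a score, a p-value with its FDR, the log2 fold over input, and the counts of ChIP and input reads. The narrow peaks of DPPA2 and DPPA4 have −log10 p and q values, a score and a fold enrichment ratio from the authors. Peaks with a log2 fold over 1 and a q under 0.05 were kept, and the positions of the kept peaks were used. The study's blacklist, and the mouse spike-in that its methods give for treatment experiments, were not used here.

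Following the study's methods, islands with an FDR under 0.05 and a log2 fold over 1 were kept. Gene bodies were those of 19962 protein-coding genes of GENCODE 44 (hg38), without chromosome Y and 8 records sharing a symbol, and 0 islands ran past a chromosome end. A promoter was the start of the canonical transcript with 1500 bp on either side. Shares were fitted with limma 3.58.1 (trend) across genes with a mean share of at least 5%, and island reads summed per gene with edgeR 4.0.16 (TMM, quasi-likelihood), with DESeq2 1.42.0 as an alternative, in R 4.3.3. Normalised reads are counts divided by the TMM library size and scaled to the mean library. The added scaled fits used equal island length (80.0 Mb, densest islands kept) or quantile normalization, each also after removing a loess trend on GC (span 0.3). GC came from the hg38 reference. RefSeq promoters matched 15316 of the genes. Functions were tested on simulated data.

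Genes named were, per direction, the 15 called genes of at least 10 kb with the widest gap and at most 10% overlap with another gene, the 6 with the largest read change under the same limits (1 of them is not reported here), up to 5 called members of each list, and DPPA2, DPPA4 and SETD2. For coverage the rule was applied to genes called in all 4 scaled fits. Members and lists were chosen with earlier results of these data known.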

Additional observations from a re-analysis of the deposited data

How the results depend on the processing

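With the islands as called, 0 genes passed in either direction with all deposited islands, a log2 fold above 2, no filter on the mean share, the part outside other genes, the downstream part of the body or the replicate block (0 and 0). Arcsine shares gave 495 genes higher in NCI-H661 and 87 in the control, equal island length 458 and 472, and quantile normalization 754 and 836. Leaving out 1 replicate gave 0 to 2639 and 0 to 861.

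Genes called in all 4 scaled fits numbered 337 and 375 without the GC fits, 394 and 397 on the arcsine scale, 0 to 342 and 0 to 319 without 1 replicate, and 0 and 0 with the replicate block. Same-numbered libraries of the lines did not deviate together (Pearson -0.04 over 8098 genes), so a number names a library and no pairing is known.

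Read calls numbered 224 and 198 at a coverage minimum of 25%, 727 and 404 with an island in all 4 libraries, 17 and 24 with covered length as an offset, 47 and 59 with input, 76 and 76 with all deposited islands, 57 and 48 with DESeq2, 57 and 51 with a GC offset, 53 and 43 with the replicate block, and 8 to 67 and 9 to 58 without 1 replicate.

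At a log2 fold above 2 the difference became 2.19 points for ZNF16, 6.84 for ITGA3, 3.44 for RPS20 and -0.45 for SETD2. SETD2 also changed sign with equal length (-5.56) and quantile normalization (-8.86), and ranged from -14.7 to 26.6 without 1 replicate. With input as an offset the log2 change was -0.74 for PSMC4, -0.046 for YTHDF1 and -0.016 for BYSL. The cause was not tested.

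The deposited islands give no reads where none was called, so signal below the calling limit was not measured, and both replicates of a line rest on 1 input. A lone library left in a line by leaving out the other was taken to vary like the other line.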
